A study of Mus musculus with 6 samples.

Results

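Semaphorins, the plexins that receive them and the neuropilins that act as co-receptors were followed through the ascending and the descending aorta of the mouse embryo. Every gene named Sema of classes 3 to 7, every plexin and both neuropilins were taken by symbol, which gave 31 of the 19938 genes measured, each through 1 probe set. The ascending group and the descending group were each 3 arrays of total RNA from the dissected aortic segment of untreated wild-type C57BL/6 embryos, all at 13.5 days postcoitum, and 6 arrays made up the study. The study asked which genes differ with the embryonic origin of the vessel wall, which is largely cardiac neural crest in the ascending and mesoderm in the descending aorta. The arrays are labelled as biological replicates, with no embryo, litter or pool given for any of them, so a p-value here reflects the spread among these samples alone, part of which may be technical.

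Semaphorins share an extracellular sema domain and steer cells and growing axons, in most cases by repulsion. The secreted class 3 proteins bind a neuropilin, which holds a plexin as the signalling chain, whereas the membrane-bound classes mostly bind plexins directly, and the inner part of a plexin switches off Ras-family GTPases. In the arterial pole of the heart Sema3c guides cardiac neural crest cells into the outflow tract, Plxna2 is carried by those cells, and Plxnd1 acts in the endothelium of the arch arteries.

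The values are log2 expression after the authors' RMA processing, a scale on which a difference of 1 is a doubling, and all differences are ascending minus descending. The members spanned 6.53 to 12.53, but the level of one probe set says nothing about that of another, and no detection call was used. The array labelled ascending replicate 3 did not lie with the other ascending arrays: its mean Pearson r across all genes, which are no independent replicates, reached 0.996 against the descending and 0.988 against the other ascending arrays. Whether its label names the tissue it holds cannot be told from the files, and every difference over all 6 arrays carries that doubt. Results are therefore given over all 6 arrays and again on the 5 arrays without ascending replicate 3. Because its own values led to this choice, errors and p-values of the second fit are likely too small. Descending replicate 1 gave the highest of the 6 values for 13 of 31 members (41.9%, against 31.7% of all genes). The smooth muscle markers ran from 7.91 for Lmod1 to 13.77 for Acta2, and whether each was above background could not be judged.

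Over all 6 arrays no semaphorin, plexin or neuropilin passed the test. Differences of at least 0.5 in size on the log2 scale were seen for Sema5b, Sema5a, Sema3a, Sema7a, Sema6d and Sema6a, lower in ascending aorta by their means, and for Sema3c, higher. By limma 0 of 31 members had an adjusted p under 0.05, as had 0 of 19938 genes (0.0%), and the members' adjusted p began at 0.53. An unadjusted p under 0.05 was reached by 9 members (29%, against 9.29% of all genes), 1 higher (3.96% of all genes were higher by this rule) and 8 lower (5.33%). The 3 ascending arrays lay entirely above the descending arrays for Sema3b and entirely below them for Sema5b, Sema6a, Sema7a, Sema3g and Plxnb2, which is 6 members (19.4%) against 14.8% of all genes. Among all genes 5.87% did not overlap with ascending higher and 8.95% with ascending lower. These shares were 8.58% and 6.14% when the arrays were centred on their medians, while for the members the split was again 1 higher and 5 lower. The median difference was -0.13 over the members and -0.021 over all genes, and 9 of 31 members had a higher mean in ascending aorta against 43.8% of all genes.

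Without ascending replicate 3, 8 of 31 members passed (25.8%, against 4.68% of all genes), 7 lower (2.61% of all genes) and 1 higher (2.07%). An unadjusted p under 0.05 was reached by 17 members (54.8%, against 17.2%), and 18 did not overlap (58.1%, against 34.5%). Sema3a, Sema3g, Sema5a, Sema5b, Sema6a, Sema7a and the co-receptor gene Nrp2 fell, and Sema3c rose. Leaving out ascending replicate 1 or 2 as well left 1 ascending array, so the spread came from the descending arrays alone, and no count is given. Calls lost that way are named below as a limit only. The count was 4 when descending replicate 1 was left out as well (against 2.35% of all genes), 6 without descending replicate 2 (2.52%) and 3 without descending replicate 3 (2.16%). When the 5 arrays were quantile-normalized again or centred on their medians, 9 members passed each time (4.78% and 4.74% of all genes). Sema5b and Sema7a passed in each of these fits, which all share the removal of ascending replicate 3. Of the 8 genes, ascending replicate 3 lay below all descending arrays for 4, within their range for 3 and above them for Nrp2.

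**Figure D1:**
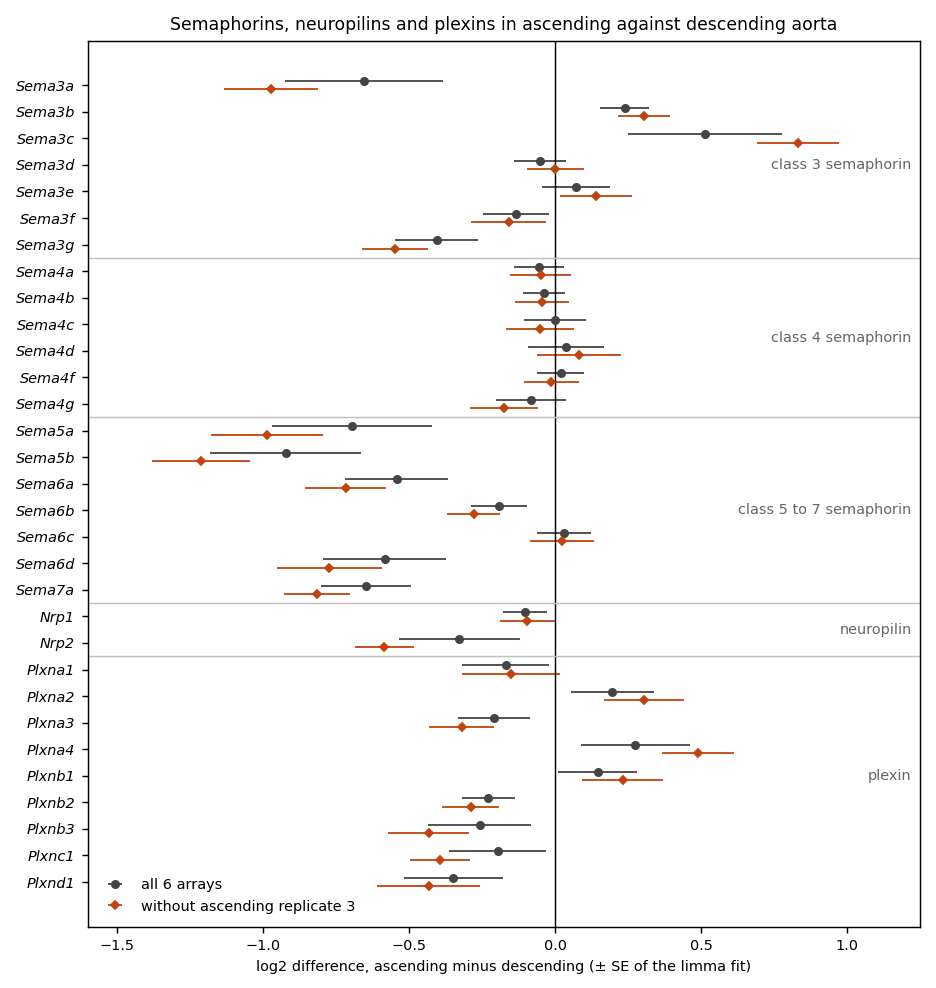
Log2 difference between ascending and descending aorta for all 31 members, grouped by role, with the standard error of the limma fit; grey circles are the fit of all 6 arrays and orange diamonds the fit of 5 arrays without ascending replicate 3. The class 5 to 7 semaphorins lie left of 0 except Sema6c, from -0.92 to 0.031 over all 6 arrays, whereas the class 4 semaphorins lie between -0.084 and 0.037.

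Of the 7 secreted class 3 semaphorins, 3 had a higher and 4 a lower mean in ascending aorta, and they moved in both directions: without ascending replicate 3 Sema3c rose while Sema3a and Sema3g fell. Sema3c, the attractant of outflow tract neural crest (probe set 10519886), gave 10.40, 10.70 and 9.60 for ascending replicates 1, 2 and 3 and 9.52, 9.90 and 9.75 for descending replicates 1, 2 and 3. Ascending replicates 1 and 2 lay above every descending array, and replicate 3 within the descending range, so the groups overlapped. The difference was 0.51 ± 0.26 (SE) over all 6 arrays (adjusted p = 0.565 by limma). Without ascending replicate 3 Sema3c rose 1.78-fold, a log2 difference of 0.83 ± 0.14 (adjusted p = 0.017 by limma), and this call was lost when descending replicate 1 (adjusted p = 0.0531), ascending replicate 2 or descending replicate 3 was left out as well.

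Sema3a, which repels sensory and sympathetic axons (probe set 10519717), gave 9.68, 9.14 and 10.36 in ascending and 10.52, 10.34 and 10.29 in descending aorta. Here too ascending replicate 3 lay among the descending arrays, while replicates 1 and 2 lay below them and differed from each other by more than the descending arrays did. The difference was -0.65 ± 0.27 (SE; adjusted p = 0.534 by limma) over all 6 arrays and -0.97 ± 0.16 (adjusted p = 0.015) without ascending replicate 3, where Sema3a was 1.96-fold lower. That call was lost when descending replicate 1 (adjusted p = 0.0695) or ascending replicate 2 was left out too. Sema3g, a ligand of Nrp2 made by arterial endothelium (probe set 10413733), gave 7.90, 7.74 and 8.25 in ascending and 8.53, 8.29 and 8.29 in descending aorta. All 3 ascending arrays lay below the descending ones, replicate 3 by the least. The difference was -0.40 ± 0.14 (SE; adjusted p = 0.53 by limma), and -0.55 ± 0.11 without ascending replicate 3, where Sema3g fell (adjusted p = 0.0357). The Sema3g call was lost when descending replicate 1 (adjusted p = 0.0827), ascending replicate 2 or either other descending array was left out in addition.

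Sema3b, another neuropilin ligand (probe set 10596680), was the member whose ascending arrays all lay above the descending ones, at 8.41, 8.35 and 8.19 against 8.10, 8.07 and 8.06. The descending arrays were close together, with a mean of 8.08 ± 0.020 (SD, n = 3). Its difference of 0.24 ± 0.084 (SE) did not pass (adjusted p = 0.53 by limma), nor did 0.30 ± 0.088 without ascending replicate 3 (adjusted p = 0.109). The rest of the class showed no separation of the segments. Sema3f, an Nrp2 ligand, differed by -0.13 ± 0.11, Sema3d, which keeps endothelial sprouts out of territory around the pulmonary veins, by -0.050 ± 0.089, and Sema3e, which binds Plxnd1 without a neuropilin, by 0.071 ± 0.12 (SE; adjusted p from 0.703 to 0.862 by limma). Sema3d was at 0.00088 without ascending replicate 3 and Sema3e at -0.038 without ascending replicate 2. In the RefSeq gene table Sema3d and Sema3a are next to each other among protein-coding genes on chromosome 5, with 3 genes between Sema3a and Sema3e and 15 between Sema3e and Sema3c, so neighbours differed: Sema3c was higher, Sema3a lower, and Sema3d and Sema3e near 0.

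The windows around the annotated starts of Sema3c, the member that rose, and of Sema3a, Sema5b and Sema7a, which fell, are shown because these genes carry the contrast within the family. Each is 300 bases from RefSeq on GRCm38.p6, 250 before to 50 after the start, all on the plus strand, at chr5:17574566-17574865 for Sema3c, chr5:13396534-13396833 for Sema3a, chr16:35541112-35541411 for Sema5b and chr9:57939862-57940161 for Sema7a. Capitals mark the E-box CANNTG and the GC box GGGCGG, read on both strands (CCGCCC is the GC box on the other strand).
Sema3c: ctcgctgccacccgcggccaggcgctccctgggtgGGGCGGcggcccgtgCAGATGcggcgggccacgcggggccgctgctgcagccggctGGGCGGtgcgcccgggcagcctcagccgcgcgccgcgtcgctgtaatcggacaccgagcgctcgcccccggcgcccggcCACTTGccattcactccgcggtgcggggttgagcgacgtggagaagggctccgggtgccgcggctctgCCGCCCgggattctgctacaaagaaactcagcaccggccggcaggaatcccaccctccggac
Sema3a: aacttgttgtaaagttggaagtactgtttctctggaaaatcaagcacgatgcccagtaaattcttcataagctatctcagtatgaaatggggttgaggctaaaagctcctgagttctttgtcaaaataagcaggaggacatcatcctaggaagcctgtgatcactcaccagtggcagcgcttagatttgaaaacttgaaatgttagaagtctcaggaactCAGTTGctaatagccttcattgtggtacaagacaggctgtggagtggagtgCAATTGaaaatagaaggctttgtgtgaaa
Sema5b: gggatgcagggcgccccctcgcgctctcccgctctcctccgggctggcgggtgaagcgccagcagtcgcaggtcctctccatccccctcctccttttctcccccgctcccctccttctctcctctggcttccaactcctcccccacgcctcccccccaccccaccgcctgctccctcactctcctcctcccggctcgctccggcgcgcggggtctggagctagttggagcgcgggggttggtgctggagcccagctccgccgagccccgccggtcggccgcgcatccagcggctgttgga
Sema7a: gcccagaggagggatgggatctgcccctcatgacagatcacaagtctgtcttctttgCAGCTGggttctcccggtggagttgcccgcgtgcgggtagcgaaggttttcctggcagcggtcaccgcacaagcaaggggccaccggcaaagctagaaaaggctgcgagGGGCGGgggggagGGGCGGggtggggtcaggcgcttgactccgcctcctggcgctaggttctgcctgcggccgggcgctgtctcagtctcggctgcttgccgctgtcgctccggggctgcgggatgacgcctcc
The Sema3c window held 3 GC boxes, 2 E-boxes and 42 CpG dinucleotides at 75.7% G and C. The Sema3a window held 0 GC boxes, 2 E-boxes and 2 CpG at 41.3%, while the Sema5b window held neither motif at 73.0% and the Sema7a window 2 GC boxes and 1 E-box at 67.3%. No marked motif was in all 3 shown windows of genes that fell without ascending replicate 3. Of the other genes that fell in that fit, Sema5a had 5 GC boxes and 0 E-boxes in its window. The Nrp2 window held 5 and 1, that of Sema3g 1 and 2, and Sema6a had no entry. Whether a window bears on the expression values was not tested.

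Among 37 windows of 26 members in the same table, 27 held GGGCGG (73.0%, against 35.7% of 32851 windows of all genes), and their median G and C content was 63.7% against 52.7%. CANNTG was in 21 (56.8% against 72.3%) and the GATA core GATAA, on either strand, in 4 (10.8% against 25.4%). TATAAA was in 0 member windows (13.6% of all) and the forkhead core TGTTTAC in 0 (3.65% of all). None of these motifs contains another, 8 members have more than 1 window, and the matches are letters in a window, not measured sites. Plxna1, Plxna4, Sema3b, Sema3f and Sema6a had no entry.

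The neuropilins, the ligand-binding co-receptors for class 3 semaphorins and for VEGF, did not separate the segments over all 6 arrays. Nrp2 (probe set 10346843), which favours Sema3f, Sema3g and Sema3c, stood at 10.41, 10.41 and 11.18 in ascending and 11.13, 10.90 and 10.95 in descending aorta. Ascending replicates 1 and 2 agreed closely and lay below all descending arrays, whereas replicate 3 was the highest of the 6. The difference was -0.33 ± 0.21 (SE; adjusted p = 0.621 by limma). Without ascending replicate 3 Nrp2 fell by 0.58 ± 0.10 on the log2 scale (adjusted p = 0.0188 by limma), and also without descending replicate 1 (adjusted p = 0.0478), but not when ascending replicate 1, ascending replicate 2 or descending replicate 3 was left out in addition. Nrp1 (probe set 10576639), the receptor that joins Sema3a to A plexins and VEGF to Kdr, gave 11.35, 11.49 and 11.40 in ascending and 11.47, 11.52 and 11.56 in descending aorta. The segments overlapped, the difference of -0.10 ± 0.076 (SE) did not pass (adjusted p = 0.669), and it was -0.095 ± 0.094 without ascending replicate 3.

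**Figure D2:**
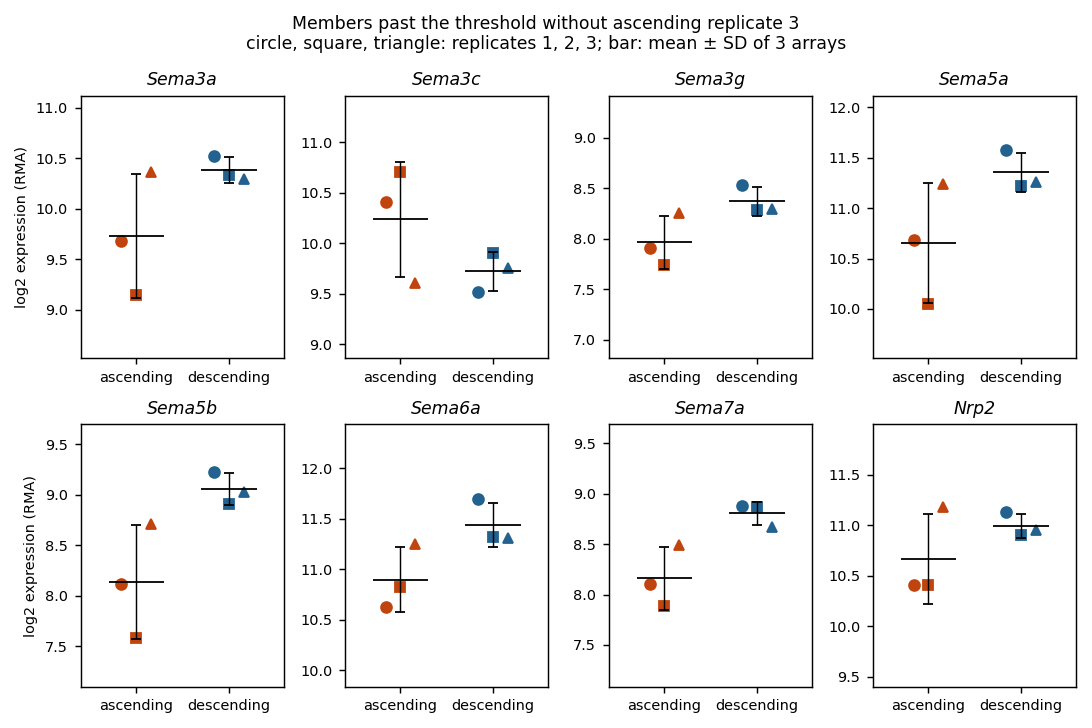
Log2 expression on each array for the 8 members with an adjusted p under 0.05 in the fit without ascending replicate 3; orange points are ascending and blue points descending arrays, with replicates as circle, square and triangle, and lines and bars give the mean and SD of 3 arrays. Each panel spans the same log2 range, and the ascending triangle (replicate 3) lies nearer the blue points than the other ascending arrays do, within the descending range for Sema3a, Sema3c and Sema5a.

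The 13 membrane-bound semaphorins, classes 4 to 7, had a median difference of -0.084, and 10 of them had a lower mean in ascending aorta. Of the 13, 5 reached an unadjusted p under 0.05 by limma (38.5%, against 9.29% of all genes). Without ascending replicate 3, 4 of the 13 passed (30.8%, against 4.68%). Classes 4 to 7 were set as 1 group, and its split was made with earlier results of these data known. Shares within a part are therefore description and no support. The median difference was -0.019 over class 4. Of the 7 genes of classes 5, 6 and 7, 6 had a lower mean in ascending aorta. Their median difference was -0.58, against -0.021 over all genes. Of them 5 reached an unadjusted p under 0.05, all lower (against 5.33% of all genes), and without ascending replicate 3 the fall passed for 4 (against 2.61%), Sema5a, Sema5b, Sema6a and Sema7a. Sema5b (probe set 10435415), a transmembrane semaphorin with thrombospondin repeats that signals through plexins A1 and A3, differed most among the members. It gave 8.12, 7.58 and 8.71 in ascending and 9.23, 8.91 and 9.03 in descending aorta. All ascending arrays lay below all descending arrays, replicate 2 by the widest margin. The difference was -0.92 ± 0.26 (SE; adjusted p = 0.53 by limma), and without ascending replicate 3 Sema5b was 2.31-fold lower, at -1.21 ± 0.17 (adjusted p = 0.0073). Its relative Sema5a (probe set 10423520), a ligand of Plxnb3, gave 10.68, 10.05 and 11.24 against 11.58, 11.22 and 11.26. Ascending replicate 3 lay just above the lowest descending array, so the groups overlapped. The difference was -0.69 ± 0.27 (SE; adjusted p = 0.53), and without ascending replicate 3 Sema5a fell by 0.99 ± 0.19 (adjusted p = 0.028 by limma), a call lost when ascending replicate 2 or any descending array was left out as well (adjusted p = 0.105 without descending replicate 1).

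Sema7a, the member with the lowest unadjusted p, is anchored in the membrane by a lipid and binds Plxnc1 and integrins that contain the beta 1 chain. Its probe set 10585778 gave 8.10, 7.88 and 8.49 in ascending and 8.88, 8.87 and 8.67 in descending aorta. The 2 segments did not overlap, and ascending replicate 3 lay between its own group and the descending arrays. The difference was -0.65 ± 0.15 (SE; unadjusted p = 0.0035, adjusted p = 0.53 by limma), and -0.81 ± 0.11 without ascending replicate 3, where Sema7a fell 1.76-fold (adjusted p = 0.0074).

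Sema6a and Sema6d are transmembrane ligands of A plexins, and Sema6d acts in the growth of the embryonic heart. Sema6a (probe set 10458843) gave 10.62, 10.82 and 11.25 in ascending and 11.69, 11.32 and 11.31 in descending aorta, with no overlap. Its difference was -0.54 ± 0.18 (SE; adjusted p = 0.53 by limma), and without ascending replicate 3 it fell by 0.72 ± 0.14 (adjusted p = 0.0281), a call lost when any further array was left out (adjusted p = 0.0522 without descending replicate 1). Sema6d (probe set 10475544) gave 9.48, 9.31 and 9.97 against 10.53, 9.87 and 10.11, and ascending replicate 3 lay above descending replicate 2. Its difference of -0.58 ± 0.21 (SE, adjusted p = 0.53 by limma) became -0.77 ± 0.18 without ascending replicate 3, just short of the threshold (adjusted p = 0.0543). In that fit it passed after repeated quantile normalization (adjusted p = 0.048) or with descending replicate 2 also left out (adjusted p = 0.0357). It did not pass there after median-centring or with descending replicate 1 (adjusted p = 0.0754) or 3 left out instead. Sema6b, a Plxna4 ligand, gave 7.62, 7.68 and 7.91 against 7.90, 7.91 and 7.98, a difference of -0.19 ± 0.096 (SE; adjusted p = 0.56). Its 2 probe sets hold identical values on all 6 arrays. Sema6c was the exception in sign, at 0.031 ± 0.092 (SE; adjusted p = 0.922), and at -0.022 without ascending replicate 2 and -0.0072 without descending replicate 2.

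The 6 class 4 semaphorins, transmembrane proteins that mostly signal through B plexins and are also known from immune cells, lay close to 0. Their differences ran from -0.084 to 0.037 over all 6 arrays and from -0.18 to 0.081 without ascending replicate 3, and 0 of 6 had an unadjusted p under 0.05 by limma in either fit. Sema4g differed by -0.084 ± 0.12, Sema4a by -0.056 ± 0.086, Sema4b by -0.038 ± 0.073 and Sema4d, the ligand of Plxnb1, by 0.037 ± 0.13 (SE). Sema4f and Sema4c, a Plxnb2 ligand, differed by 0.020 ± 0.080 and -0.00058 ± 0.11, and the signs of Sema4a, Sema4c, Sema4d, Sema4f and Sema4g changed under 1 or more alternatives. Of the 2 probe sets of Sema4d, the one used gave 0.037 and the other -0.19, with ascending arrays at 7.21, 7.16 and 7.03 against descending arrays at 7.34, 7.35 and 7.28, so they disagreed in sign and the second separated the segments.

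**Figure D3:**
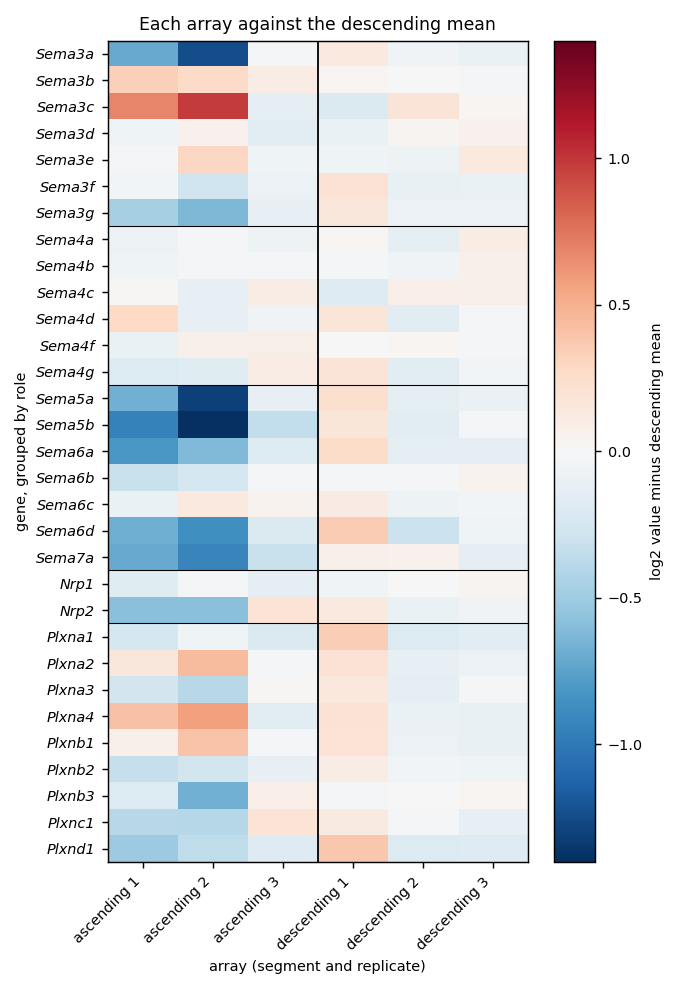
Each member on each of the 6 arrays as its log2 value minus the mean of the descending arrays, grouped by role; blue is below and red above that mean, and the vertical line parts the segments. Ascending replicates 1 and 2 are blue for Sema3a, Sema5a, Sema5b, Sema6a, Sema6d and Sema7a and red for Sema3c and Plxna4, ascending replicate 3 is pale in most rows, and descending replicate 1 is the reddest descending array for Plxna1, Plxnd1 and Sema6d.

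Of the 9 plexins, the signalling receptors, 3 had a higher and 6 a lower mean in ascending aorta, none passed over all 6 arrays or without ascending replicate 3, and the A plexins pointed in both directions. Plxna4 (probe set 10543802), a receptor for Sema3a and Sema6a, gave 10.48, 10.64 and 9.92 in ascending and 10.27, 9.98 and 9.96 in descending aorta. Ascending replicate 3 was the lowest of the 6 and replicates 1 and 2 the highest. The difference was 0.28 ± 0.19 (SE; adjusted p = 0.647 by limma) over all 6 arrays, 0.49 ± 0.12 (adjusted p = 0.0706) without ascending replicate 3, and 0.59 (adjusted p = 0.0464) when descending replicate 1 was left out too. Plxna2, the plexin of cardiac neural crest, gave 10.56, 10.85 and 10.38 against 10.61, 10.28 and 10.31, a difference of 0.20 ± 0.14 (SE; adjusted p = 0.665) and 0.30 ± 0.14 (adjusted p = 0.306) without ascending replicate 3. The segments overlapped in both fits. Plxna3 gave 9.52, 9.39 and 9.79 against 9.93, 9.66 and 9.75, a difference of -0.21 ± 0.12 (SE; adjusted p = 0.602). Plxna1 differed by -0.17 ± 0.15 (SE), with descending replicate 1 at 11.64 and the other 5 arrays between 11.05 and 11.24, and without descending replicate 1 the difference was 0.0033.

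Plxnb2 (probe set 10431424), a receptor of class 4 semaphorins, was the plexin whose segments did not overlap. It gave 12.06, 12.12 and 12.27 in ascending and 12.48, 12.33 and 12.31 in descending aorta. The gap between the nearest arrays was small, and the difference of -0.23 ± 0.090 (SE) did not pass (adjusted p = 0.53 by limma), nor did -0.29 ± 0.097 without ascending replicate 3 (adjusted p = 0.167). Plxnd1 (probe set 10547100), the endothelial receptor of Sema3e and, with neuropilins, of Sema3c, gave 11.65, 11.80 and 11.98 against 12.53, 11.96 and 11.98. Descending replicate 1 stood well above the other 5 arrays. Its difference was -0.35 ± 0.17 (SE; adjusted p = 0.552), -0.43 ± 0.18 (adjusted p = 0.258) without ascending replicate 3, and -0.16 without descending replicate 1. Plxnc1, the Sema7a receptor, gave 8.23, 8.21 and 8.81 against 8.74, 8.60 and 8.50, a difference of -0.20 ± 0.17 (SE), and -0.39 ± 0.10 (adjusted p = 0.0813) without ascending replicate 3. Plxnb3, a Sema5a receptor, gave 6.9996, 6.53 and 7.28 against 7.18, 7.19 and 7.22, with ascending replicate 3 the highest of the 6. It differed by -0.26 ± 0.17 and Plxnb1, the Sema4d receptor, by 0.15 ± 0.14 (SE, with adjusted p of 0.644 and 0.732 by limma). Without ascending replicates 1 and 3, which left 1 ascending array, the Plxnb3 difference was -0.67.

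Some ligands and receptors that bind each other had differences of the same sign, as Sema7a and Plxnc1, Sema5a and Plxnb3 and Sema3g and Nrp2, all lower by their means in ascending aorta. Others had opposite signs, as Sema3a at -0.65 with Plxna4 at 0.28, or Sema3c at 0.51 with Nrp2 at -0.33 and Plxnd1 at -0.35. These pairs were picked after their values were seen, and no test of a pair was made.

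A list of 52 genes held those that semaphorin receptors signal through or bind, and also Plxdc1 and Plxdc2, which are related to plexins by a domain only. Of these, 50 were measured and 0 passed over all 6 arrays, 34 with a lower and 16 with a higher mean in ascending aorta. By limma 9 (18%, against 9.29% of all genes) reached an unadjusted p under 0.05, 3 higher and 6 lower, and the median difference was -0.066. Itga1, an integrin chain that pairs with beta 1 and can bind Sema7a, gave 8.82, 9.03 and 9.26 in ascending and 9.67, 9.58 and 9.56 in descending aorta, with no overlap. Its difference was -0.57 ± 0.12 (SE), and without ascending replicate 3 it fell by 0.68 ± 0.10 (adjusted p = 0.0095 by limma). Kdr, the VEGF receptor that joins Nrp1, gave 9.72, 10.11 and 10.82 against 11.10, 10.87 and 10.98, also with no overlap. It differed by -0.77 ± 0.25 and fell by 1.07 ± 0.14 without ascending replicate 3 (adjusted p = 0.0051). Flt1, a VEGF receptor that traps the ligand, differed by -0.50 ± 0.17 and Plxdc2, a membrane protein with a plexin-like domain, by -0.55 ± 0.16 (SE). On the higher side were Rras2, a Ras-family GTPase, at 0.63 ± 0.20 (10.69, 10.44 and 10.03 against 9.40, 9.96 and 9.91), and Limk2, a kinase that phosphorylates cofilin, at 0.26 ± 0.095 (SE).

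Without ascending replicate 3, 6 of these 50 genes passed (12%, against 4.68% of all genes): Itga1, Kdr, Plxdc2 and the tyrosine kinase gene Fes fell, and Rras2 and Mical2 rose. The count was 4 without descending replicate 1 as well (2.35% of all genes), 7 without ascending replicate 1 (5.83%), 3 without ascending replicate 2 (2.35%), 4 without descending replicate 2 (2.52%) and 3 without descending replicate 3 (2.16%). Itga1, Kdr and Mical2 passed in each of these fits. The Rras2 call (adjusted p = 0.0437 by limma) was lost when any further array was left out and when the 5 arrays were quantile-normalized again or centred on their medians. Plxdc2 was lost without descending replicate 1 (adjusted p = 0.0522 by limma), ascending replicate 2 or descending replicate 3, and Fes without ascending replicate 2, descending replicate 2 or descending replicate 3. Mical2, which oxidises actin in the family of enzymes that act behind plexins, stood at 10.58 and 10.52 on ascending replicates 1 and 2, at 9.62 on replicate 3 and at 9.80, 9.72 and 9.87 on the descending arrays. Fes gave 8.31, 8.19 and 8.81 against 8.81, 8.84 and 8.87, so for both genes ascending replicate 3 lay close to or beyond the descending arrays, away from its group. Mical2 and Fes were named after their values were seen.

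**Figure D4:**
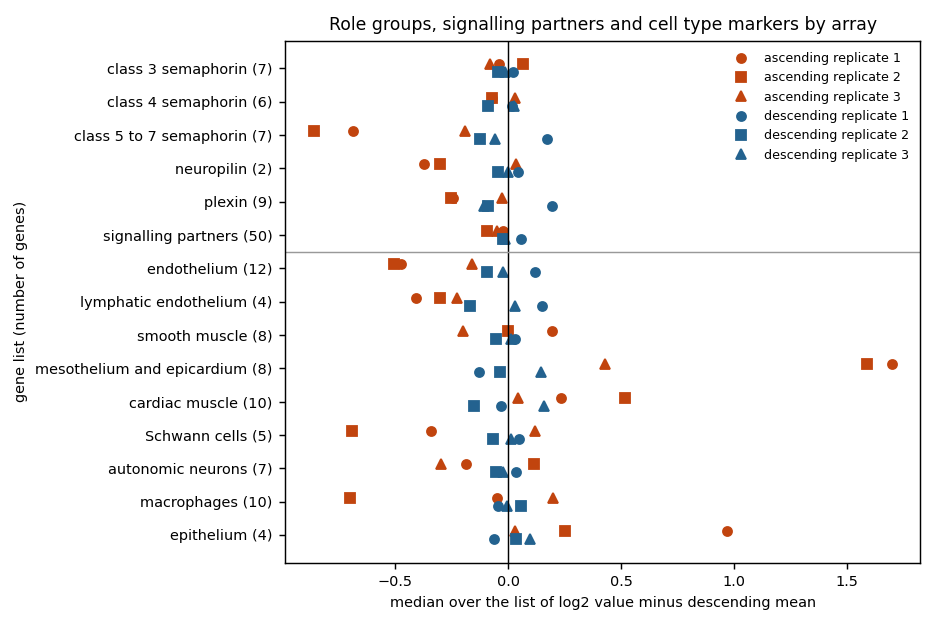
Median over each gene list of the log2 value minus the descending mean, by array, with ascending arrays in orange, descending arrays in blue and replicates as circle, square and triangle; the lists below the line are cell type markers, and the number of genes is in brackets. On ascending replicates 1, 2 and 3 the class 5 to 7 semaphorins lie at -0.69, -0.86 and -0.19 and the class 4 semaphorins at -0.073, -0.071 and 0.030. The endothelial markers lie there at -0.47, -0.51 and -0.16, and the mesothelial and epicardial markers at 1.70, 1.59 and 0.43.

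A dissected segment holds several cell types, and in such bulk RNA fewer cells of a type and less RNA per cell cannot be told apart. Endothelial markers had a lower mean in ascending aorta in 12 of 12 genes (median -0.40). The log2 of their summed level was 14.22 to 14.71 in ascending and 14.77 to 14.98 in descending aorta. Kdr and Flt1 are on this list as well as among the signalling partners. Sums here and below follow the brightest probe sets of each list. Schwann cell markers were lower in 5 of 5 by their means, with sums of 9.28 to 10.75 against 10.51 to 10.71, and macrophage markers in 9 of 10, with sums of 11.93 to 13.16 against 12.75 to 12.88. Mesothelial and epicardial markers were higher in 8 of 8 by their means (median 1.05, and 1.64 without ascending replicate 3; sums of 12.37 to 13.57 against 11.79 to 12.24) and cardiac muscle markers in 10 of 10 (12.45 to 13.30 against 11.997 to 12.34). Autonomic neuron markers were higher in 1 of 7 by their means (10.96 to 11.17 against 11.19 to 11.36), lymphatic endothelial markers in 1 of 4 (10.90 to 11.46 against 11.61 to 11.94), epithelial markers in 4 of 4 (9.93 to 10.97 against 9.84 to 9.97) and smooth muscle markers in 4 of 8 (14.599 to 14.90 against 14.74 to 14.76). By limma 0 genes of each list passed over all 6 arrays. Without ascending replicate 3 (4.68% of all genes) 6 of 8 mesothelial and epicardial, 4 of 12 endothelial, 3 of 10 cardiac, 2 of 5 Schwann cell, 2 of 4 epithelial, 2 of 4 lymphatic, 1 of 10 macrophage, 1 of 8 smooth muscle and 1 of 7 neuronal markers passed. The lowest marker value was 4.43, and as these log2 values do not reach 0, they do not show which markers were absent. On ascending replicate 3 the endothelial, lymphatic endothelial and mesothelial medians lay between those of the other ascending and the descending arrays, as did that of the class 5 to 7 semaphorins. The cardiac and epithelial medians lay within the descending range there. Those of the Schwann cell and macrophage markers (0.12 and 0.20) lay above all descending arrays. Those of the smooth muscle and neuronal markers (-0.20 and -0.30) were the lowest of the 6 arrays. The marker lists' part in the values of Sema3a, Sema3c, Sema3g, Sema5a, Sema5b, Sema6a, Sema7a and Nrp2 was not tested.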

How the data were processed

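Log2 expression of 35556 probe sets on Affymetrix mouse arrays was used as the authors deposited it; the tools were RMA and Partek 6.6, per the submitters' processing notes, with settings and the build of the annotation not given in the sources used here. RMA makes the array distributions alike and draws in differences of dim genes, and a shift shared by most genes cannot be seen. The number of arrays limits the precision. Groups were taken from the sample labels.

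Of the probe sets, 21789 had 1 symbol in the platform annotation, and 21698 of them matched a RefSeq gene (GRCm38.p6) by Entrez number, with 0 changed symbols. The probe set with the highest mean was kept for each of 19938 genes. All 31 members of the RefSeq table were measured, 2 of them by more than 1 probe set. The segments were compared by limma 3.58.1 (lmFit, eBayes; R 4.3.3) as a two-sided test on the segment alone, and p-values were adjusted over all genes (Benjamini-Hochberg) at 0.05. An exact permutation test of 3 against 3 cannot go below p = 0.1 and was not used.

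From each role group the 4 members of lowest unadjusted p (or fewer), both neuropilins, members whose segments do not overlap and those passing without ascending replicate 3 are given by array, with classes 4 to 7 as 1 group, and of the signalling partners the 6 with the smallest p are named. Array values of Sema6b, Plxna1, Plxna2, Plxna4, Plxnc1 and some partners were added after they were seen. The members, lists and rules were chosen with earlier results of these data known. Some listed genes were not analysed here. Alternatives were other normalizations, filters, probe set rules, variance models, a replicate block, weights per array and left-out arrays. Python 3.11.15, pandas 2.3.3 and matplotlib 3.10.9 made tables and plots.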

Additional observations from a re-analysis of the deposited data

How the results depend on the processing

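Of 22 alternatives, those that kept all 6 arrays called 0 members, 0 signalling partners and 0 genes, and so did leaving out any array but ascending replicate 3; 22 of 31 members kept their sign throughout. Leaving out 1 array gave 0 to 8 members passing, 2 to 17 at an unadjusted p under 0.05, 6 to 18 without overlap, 0 to 933 genes and 0 to 6 signalling partners. Leaving out ascending replicate 3 with a further array gave 2 to 7 members (4 with descending replicate 1), 14 to 19 at an unadjusted p under 0.05, 19 to 25 without overlap (22 with descending replicate 1), 430 to 1163 genes (469 with descending replicate 1) and 3 to 7 partners (4 with descending replicate 1); where ascending aorta then had 1 array, that array was assumed to vary like the others. The fit without ascending replicate 3 and descending replicate 1 was planned, though with earlier results of these data known. The other fits without 2 arrays and the next ones were chosen after seeing the data. Without ascending replicate 3, repeated quantile normalization gave 9 members, 953 genes and 5 partners. It left 16 members at an unadjusted p under 0.05 by limma (3535 of all genes) and 18 without overlap (6897 of all genes). Median-centring there gave 9 members, 945 genes and 5 partners. By the same measures in turn it gave 18 members (3476 of all genes) and 19 members (6914 of all genes). Over all 6 arrays the count at an unadjusted p under 0.05 was 3 without moderated variance (1234 of all genes) and 12 with array weights (2759), against 9 (1852). The replicate number as a block gave 0 members and 0 genes passing, and 8 members at an unadjusted p under 0.05 (1623 of all genes). Same-numbered arrays did not deviate together (correlations of -0.080, -0.055 and 0.024), so the numbers were not taken as pairs. The median difference over the members stayed between -0.24 and -0.094 in all alternatives. Signs changed for 9 members whose difference over all 6 arrays was at most 0.17 in size. Plxna1 ranged from -0.26 (without descending replicate 2) to 0.0033 (without descending replicate 1) without 1 array and was 0.022 without ascending replicate 3 and descending replicate 1. Sema3d was 0.00088 without ascending replicate 3, 0.012 and 0.030 after quantile normalization and median-centring there, and 0.064, 0.019 and 0.030 without ascending replicate 1, descending replicate 2 or descending replicate 3 in addition. Sema3e was -0.038 and -0.012 without ascending replicate 2, alone and together with ascending replicate 3, and 0.29 without ascending replicates 1 and 3. Sema4a was -0.12 without descending replicate 2 and 0.00049 without ascending replicate 3 and descending replicate 3. Sema4c was 0.0052 after quantile normalization, 0.029 after median-centring, 0.042 to 0.059 in 3 fits without 1 array 0.017 without ascending replicates 2 and 3, and -0.14 without ascending replicate 3 and descending replicate 1. Sema4d was -0.077 as the mean of its probe sets, -0.083 and -0.036 without ascending replicate 1 or descending replicate 2, -0.11 without ascending replicates 1 and 3 and 0.28 without ascending replicates 2 and 3. Sema4f was 0.076 without ascending replicate 1, -0.017 with array weights, -0.0049 and -0.013 without ascending replicate 2 or 3, -0.010 without ascending replicate 3 and descending replicate 1, -0.094 without ascending replicates 2 and 3, and -0.00050 and -0.027 without ascending replicate 3 and descending replicate 2 or 3. Sema4g was 0.0088 without descending replicate 1 and -0.25 without ascending replicate 3 and descending replicate 2. Sema6c was -0.022 and -0.0072 without ascending replicate 2 or descending replicate 2, and -0.089 and -0.015 when ascending replicate 3 was left out as well, and 0.14 without ascending replicates 1 and 3. The cause of these changes was not tested. The arrays give no detection call, so how far dim members lie above background was not assessed.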
